A study of Mus musculus with 8 samples.

Results

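The p53 target genes described here are 31 mouse genes that were chosen by symbol. They are Trp53, which encodes p53, and 30 genes that p53 is known to switch on or that were listed with its targets. All 31 were among the 25240 gene symbols of the deposited count table, and all 31 passed the filter on low counts that left 14284 genes for testing. RNA was sequenced from kidney cells in 8 libraries, with 4 from Tomato-negative cells and 4 from Tomato-positive ones. All 8 libraries shared the genotype, p16-tdTomato mice, and the treatment, chronic kidney disease (CKD) induced by feeding adenine, so no library came from a healthy kidney. The labels name proximal tubular epithelial cells as the cell type of every library and give no age. The sources used here do not give how the reporter was built, which cells it is active in or how the cells were sorted. The sample titles carry the identifiers CKD523_2, CKD523_3, CKD627_1 and CKD627_2, each on 1 negative and 1 positive library, which are called a pair here. The meaning of the prefixes CKD523 and CKD627 is not given, nor is whether the libraries came from separate animals, so p-values reflect only how far these samples spread, which may be technical.

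p53 is a transcription factor that is kept scarce in unstressed cells because MDM2 marks it for destruction and MDM4 blocks its activity. DNA damage and other stresses release it from both, and it then raises genes that halt the cell cycle, repair DNA, limit growth signalling or start cell death, and among them Mdm2 itself, which closes a feedback loop. In the injured kidney tubule p53 is known for its part in cell cycle arrest and cell death, and in senescent cells for keeping up the p21 (Cdkn1a) arm of the arrest, beside the arm of p16, which is made from Cdkn2a. Many of its targets also answer to other signals, such as growth factors, low oxygen or amino acid shortage.

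Levels are given as CPM, the usual scaling of counts to the library total, here after TMM, a correction for composition. Differences are log2 values, Tomato-positive minus Tomato-negative, so that 1 is a doubling. A gene passed where the adjusted p of edgeR's quasi-likelihood test was below 0.05, adjusted by the Benjamini-Hochberg method over all 14284 genes. The unpaired fit compared 4 with 4 libraries, and the paired fit did so within the 4 identifiers. Total counts ran from 13474439 to 19886202 per library, and the smallest count of any of the 31 genes in a library was 25. As a check of the labels, tdTomato averaged 111 ± 29.4 CPM (SD, n = 4) in the negative and 3702 ± 461 in the positive libraries, a log2 difference of 5.05 ± 0.25 (SE, unpaired fit, edgeR adjusted p = 7.08e-05). Cdkn2a averaged 1.06 ± 0.948 and 1.17 ± 1.11 CPM, and its difference of 0.14 ± 0.88 did not pass (unpaired fit, edgeR adjusted p = 0.949). The labelled cell type was checked with 16 proximal tubule markers, all of which were measured, and their summed level ran from 7147 to 31564 CPM in the negative and from 4632 to 12992 in the positive libraries. Markers of the loop of Henle, the distal tubule and the collecting duct were also present in every library. In the negative CKD627 libraries the loop of Henle gene Umod alone stood at 10013 and 11354 CPM. The 16 proximal tubule markers together reached at most 8740 CPM in any CKD627 library. In the CKD523 libraries they summed to 12672 to 31564 CPM, and Umod stood at 3414 CPM at most.

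Promoter sequences were available for 24 of the 31 genes (29 windows, RefSeq, build GRCm38.p6). The 250 bases before each start were searched on both strands for a p53 decamer, the unit that occurs as a pair in a full p53 response element, and for 4 elements of other stress and growth signals. Of the 29 windows, 9 held a p53 decamer, against 7.13% of all 32851 promoter windows of the same length. These were windows of Aen, Ccng1, Ei24, Gadd45a, Ier5, Mdm2, Polk, Sesn1 and Trp53. No member window held a pair of adjoining decamers, which 0.0639% of all windows did. The cyclic AMP response element TGACGTCA was found for Btg2, Plk2 and Trp53inp2, in 3 windows (10.3%) against 1.55% of all, and its core TGACG, which every full element contains, in 7 windows (24.1%) against 17.8%. The full element was added to the search after matches to its core had been seen. No member window held a CArG box (1.47% of all windows) or the stress composite element TGATGNAAN (3.44%). A match is a description of these letters and not a measured binding site.

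Windows are shown for Plk2, the member that rose in both fits, for Plk3, its close relative, for Btg2, the most abundant member per length, and for Mdm2 and Ier5, which hold a decamer. They are the 250 bases before the start, 5′ to 3′ on the strand of the gene, at chr13:110394794-110395043 (Plk2, plus strand), chr4:117133964-117134213 (Plk3, minus strand), chr1:134079156-134079405 (Btg2, minus strand), chr10:117710759-117711008 (Mdm2, minus strand) and chr1:155099637-155099886 (Ier5, minus strand). No exon of GENCODE M21 lies in them. Capitals mark TGACGTCA in Plk2 (62 to 55 bases before the start) and Btg2 (166 to 159), the core TGACG in Plk3 (132 to 128 and 63 to 59), and the decamer in Mdm2 (186 to 177) and Ier5 (166 to 157).
Plk2: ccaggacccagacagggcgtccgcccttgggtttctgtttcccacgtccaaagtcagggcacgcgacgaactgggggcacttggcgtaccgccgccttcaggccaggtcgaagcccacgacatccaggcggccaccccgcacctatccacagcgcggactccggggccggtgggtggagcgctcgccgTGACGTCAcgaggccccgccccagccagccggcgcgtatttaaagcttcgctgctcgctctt
Plk3: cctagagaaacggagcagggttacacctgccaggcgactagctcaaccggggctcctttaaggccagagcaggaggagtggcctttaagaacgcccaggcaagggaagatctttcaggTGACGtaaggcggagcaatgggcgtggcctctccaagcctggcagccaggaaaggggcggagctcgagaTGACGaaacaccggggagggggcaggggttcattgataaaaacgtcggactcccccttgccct
Btg2: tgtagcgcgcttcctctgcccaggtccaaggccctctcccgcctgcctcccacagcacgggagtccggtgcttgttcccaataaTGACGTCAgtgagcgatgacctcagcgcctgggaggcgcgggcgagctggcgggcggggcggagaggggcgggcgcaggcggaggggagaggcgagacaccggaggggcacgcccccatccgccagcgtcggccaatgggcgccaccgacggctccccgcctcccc
Mdm2: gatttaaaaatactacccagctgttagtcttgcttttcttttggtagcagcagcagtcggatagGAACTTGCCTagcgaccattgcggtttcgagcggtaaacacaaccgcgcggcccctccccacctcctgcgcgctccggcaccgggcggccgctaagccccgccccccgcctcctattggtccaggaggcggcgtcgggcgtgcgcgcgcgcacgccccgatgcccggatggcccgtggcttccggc
Ier5: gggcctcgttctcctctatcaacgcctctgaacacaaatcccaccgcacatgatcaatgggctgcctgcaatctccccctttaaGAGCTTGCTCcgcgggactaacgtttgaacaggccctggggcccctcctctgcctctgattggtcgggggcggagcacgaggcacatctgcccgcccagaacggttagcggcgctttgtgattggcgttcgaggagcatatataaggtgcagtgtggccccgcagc

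Across the 31 genes, most differences between Tomato-positive and Tomato-negative cells were small and positive, and 5 genes rose in at least 1 of the 2 fits: Plk2, Sesn3, Gdf15, Plk3 and Mdm4. In the unpaired fit 1 gene, Plk2, was higher, where 52 of all 14284 genes (0.364%) were, and none was lower, where 33 genes (0.231%) were. In the paired fit 5 of 31 genes (16.1%) were higher, against 3.82% of all genes, and none was lower, against 3.81%. Without adjustment for the number of genes, 8 members were higher and 1 lower at p below 0.05 in the unpaired fit, where 17.8% of all genes passed in either direction, and 10 and 1 in the paired fit, where 25.0% did. Unpaired DESeq2 called 4 members higher and none lower, where it called 7.00% of all genes in either direction, and paired DESeq2 called 7 higher and 1, Gadd45a, lower, where it called 14.2%. With the prefix as a covariate, edgeR called 7 members, all higher, and 10.7% of all genes. The median log2 difference over the 31 genes was 0.30 in the paired and 0.29 in the unpaired fit, against 0.01 over all genes in both, and 24 of the 31 differences were above 0. Within the pairs CKD523_2, CKD523_3, CKD627_1 and CKD627_2, 20, 24, 22 and 22 members were higher in the positive library, with medians of 0.22, 0.42, 0.28 and 0.22, while 49.8, 49.9, 51.5 and 50.1% of all tested genes were.

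In 12 of the 31 genes (38.7%) the positive library was higher in all 4 pairs, against 17.9% of all genes: Apaf1, Btg2, Fas, Gdf15, Mdm2, Mdm4, Plk2, Plk3, Polk, Sesn2, Sesn3 and Tnfrsf10b. No member was lower in all 4 pairs, against 17.6% of all genes. Every positive library lay above every negative library for 5 members (16.1%), Apaf1, Btg2, Mdm4, Plk2 and Sesn3, against 6.75% of all genes. For no member did every positive library lie below every negative one, against 6.50%. In these bulk samples fewer cells that express a gene and less RNA per cell cannot be told apart.

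**Figure D1:**
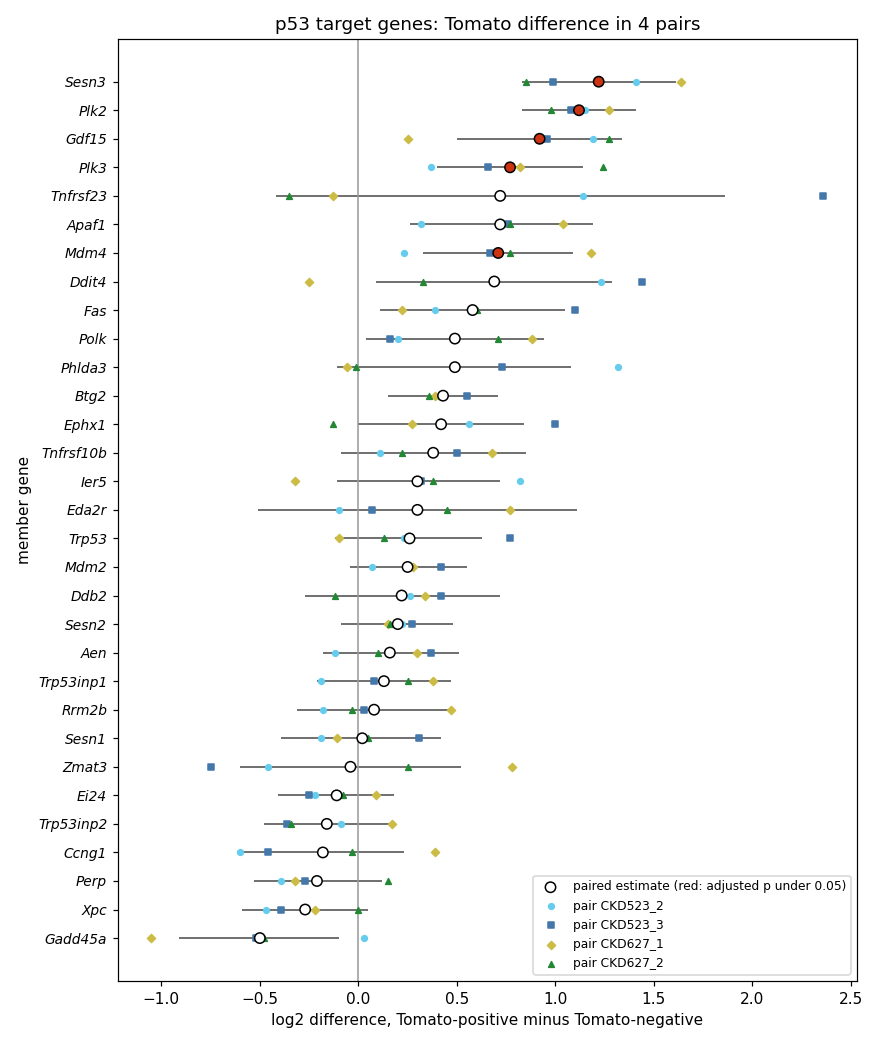
Log2 difference (Tomato-positive minus Tomato-negative, horizontal axis) of each of the 31 genes in the paired fit with its 95% interval, and small symbols for the 4 pairs. Filled red points, Plk2, Sesn3, Gdf15, Plk3 and Mdm4, passed the test, and 24 of the 31 differences lie above 0.

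p53 itself and its main controllers differed unequally. Trp53 (chromosome 11, 69580359 to 69591873, plus strand, GENCODE M21 on mm10) stood at 68.6, 52.7, 81.5 and 64.7 CPM in the negative libraries (CKD523_2, then CKD523_3, CKD627_1, CKD627_2) and at 80.2, 89.7, 76.0 and 71.0 in the positive ones, the order of libraries used throughout. The ranges overlapped, 3 of 4 pairs were higher, and the log2 difference of 0.26 ± 0.16 (95% interval -0.12 to 0.63) did not pass (paired fit, edgeR adjusted p = 0.372). Mdm2, which encodes the ubiquitin ligase of p53 (chromosome 10, 117688875 to 117710758, minus strand), measured 88.0, 70.8, 45.0 and 55.3 CPM in the negative and 92.4, 94.5, 54.6 and 65.5 in the positive libraries. All 4 pairs were higher by a small step, but the CKD523 libraries of either group lay above all CKD627 libraries, and the difference of 0.25 ± 0.13 (-0.04 to 0.55) did not pass (paired fit, edgeR adjusted p = 0.270).

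Mdm4, which encodes the relative of MDM2 that blocks p53 without degrading it (chromosome 1, 132959484 to 133030561, minus strand), stood at 91.2, 72.6, 55.8 and 68.5 CPM in the negative and at 107, 115, 126 and 116 in the positive libraries. The groups did not overlap, and the positive libraries lay closer together (116 ± 7.71 CPM) than the negative ones (72.0 ± 14.6; SD, n = 4). Mdm4 rose 1.64-fold in the paired fit (log2 0.71 ± 0.17, 95% interval 0.33 to 1.09, edgeR adjusted p = 0.0379) and did not pass in the unpaired fit (edgeR adjusted p = 0.0810). Without either library of CKD523_3 or of CKD627_2 the adjusted p of the paired fit was 0.152 and 0.141.

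The polo-like kinases Plk2 and Plk3, stress-responsive relatives of the mitotic kinase PLK1, both rose in the paired fit. Plk2 (chromosome 13, 110395046 to 110400844, plus strand) measured 102, 94.5, 76.3 and 94.8 CPM in the negative and 226, 199.9, 184 and 187 in the positive libraries. Every positive library stood well above every negative one, with a step of like size in each pair (log2 1.15, 1.08, 1.27 and 0.98). The mean went from 92.0 ± 11.1 to 199 ± 19.2 CPM, 2.17-fold, with a log2 difference of 1.12 ± 0.14 in the unpaired fit (edgeR adjusted p = 0.0241) and 1.12 ± 0.13 in the paired fit (0.83 to 1.41, edgeR adjusted p = 0.00280). Its unpaired call was lost without the negative library of CKD523_3 or CKD627_2 or any 1 of the 4 positive libraries, where edgeR adjusted p reached up to 0.0978 and between 6 and 26 of all genes passed, while in the paired fit Plk2 passed without any 1 pair.

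Plk3 (chromosome 4, 117128655 to 117133963, minus strand) stood at 135, 109, 33.7 and 35.0 CPM in the negative and at 174, 171, 59.5 and 82.5 in the positive libraries. Both positive libraries of a prefix lay above both negative ones, but the CKD523 libraries of either group exceeded all CKD627 libraries, so the groups overlapped over all 8. Plk3 rose 1.70-fold in the paired fit (log2 0.77 ± 0.16, 95% interval 0.40 to 1.14, edgeR adjusted p = 0.0267), and not in the unpaired fit (edgeR adjusted p = 0.558). The paired call was lost without CKD523_3 (edgeR adjusted p = 0.119) or CKD627_2 (0.116). Of its exon bases, 84 of 2531 overlap Tctex1d4 on the other strand, whose reads cannot be told apart without a known strand setting.

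Of the 3 sestrins, proteins that restrain mTORC1 and oxidative stress, Sesn3 alone passed. Sesn3 (chromosome 9, 14275067 to 14333101, plus strand), which is also a known target of FOXO factors, measured 27.1, 34.3, 16.8 and 25.7 CPM in the negative and 72.2, 68.3, 52.3 and 46.3 in the positive libraries. The groups did not overlap, and the mean went from 26.0 ± 7.18 to 59.7 ± 12.5 CPM. Sesn3 rose 2.33-fold in the paired fit (log2 1.22 ± 0.17, 95% interval 0.83 to 1.61, edgeR adjusted p = 0.00620) and did not pass in the unpaired fit (edgeR adjusted p = 0.0604). Its paired call held without any 1 pair, with log2 differences from 1.08 to 1.34.

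Sesn1 and Sesn2, the sestrins best known as p53 targets, differed less. Sesn1 stood at 19.6, 18.4, 18.9 and 17.1 CPM in the negative and at 17.2, 22.9, 17.4 and 17.7 in the positive libraries, with a difference of 0.02 ± 0.18 (-0.39 to 0.42, paired fit, edgeR adjusted p = 0.967). For Sesn2 the values were 64.0, 58.4, 45.3 and 62.6 CPM and 74.3, 70.2, 50.1 and 70.0 CPM. Each pair was a little higher for Sesn2, the ranges overlapped, and its difference of 0.20 ± 0.13 (-0.09 to 0.48) did not pass (paired fit, edgeR adjusted p = 0.370). The intervals of Sesn1 and Sesn2 both end below the lower bound of Sesn3, but the differences between the sestrins were not tested.

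**Figure D2:**
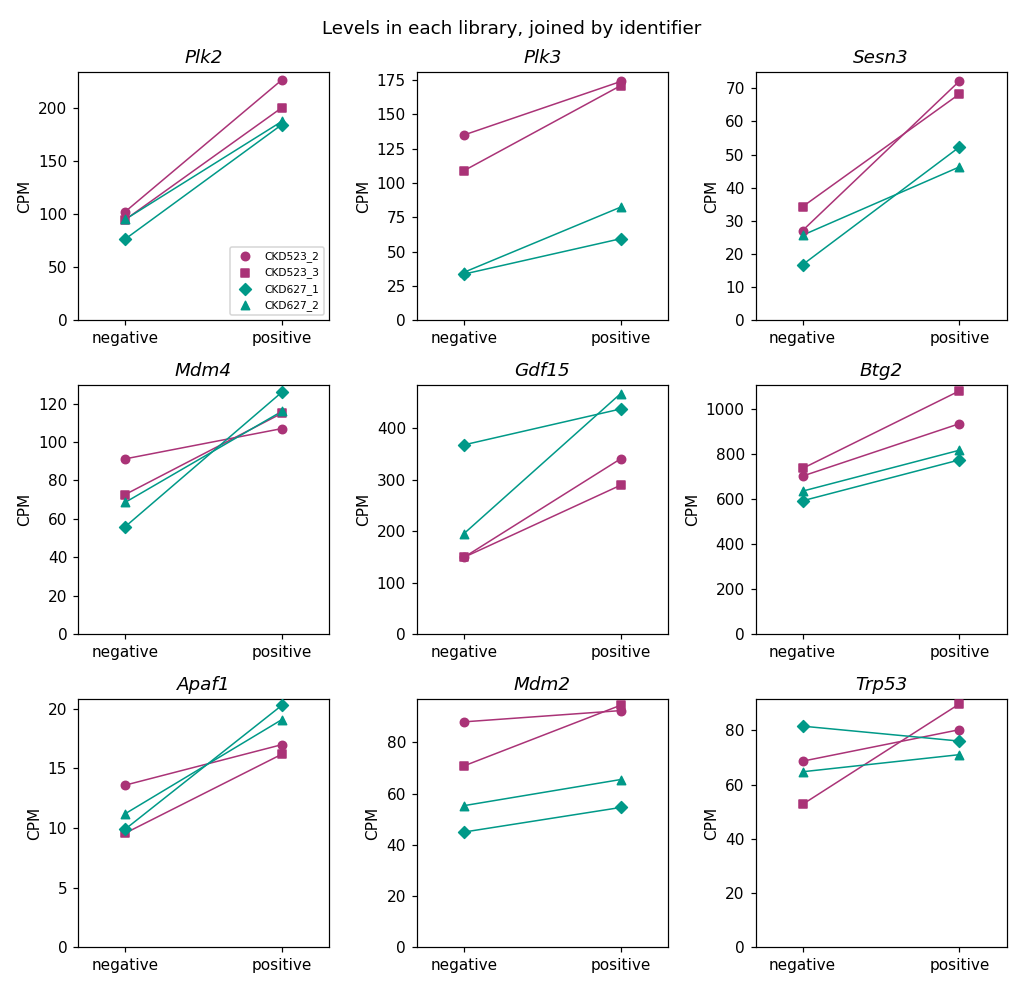
CPM (vertical axes, from 0) of Plk2, Plk3, Sesn3, Mdm4, Gdf15, Btg2, Apaf1, Mdm2 and Trp53 in each library, with a line joining the negative and the positive library of an identifier. All 4 lines go up for Plk2, Sesn3, Gdf15, Plk3 and Mdm4, and the CKD523 lines lie above the CKD627 lines for Plk3 and Mdm2.

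Gdf15, which encodes a secreted stress cytokine of the TGF-beta family (chromosome 8, 70629393 to 70632456, minus strand), measured 149, 149, 368 and 195 CPM in the negative and 341, 289.6, 438 and 468 in the positive libraries. The negative library CKD627_1 lay above 2 of the positive libraries, so the groups overlapped, and its own pair showed the smallest step (log2 0.25, against 1.19, 0.96 and 1.27). Gdf15 rose 1.89-fold in the paired fit (log2 0.92 ± 0.18, 95% interval 0.50 to 1.34, edgeR adjusted p = 0.0218) and did not pass in the unpaired fit (edgeR adjusted p = 0.213). Without CKD523_2, CKD523_3 or CKD627_2 the paired edgeR adjusted p was 0.0860, 0.117 and 0.105.

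Ddit4, whose product REDD1 restrains mTORC1 under low oxygen and other stresses, stood at 100.1, 78.7, 266 and 228 CPM in the negative and at 234, 214, 225 and 287 in the positive libraries. The positive libraries lay together, whereas the negative CKD523 libraries were low and the negative CKD627 libraries were at the level of the positive ones. Its log2 difference of 0.69 ± 0.27 did not pass in the paired fit (edgeR adjusted p = 0.151).

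Among the genes that slow or halt cell division, none passed in the unpaired or the paired edgeR fit. Btg2, an antiproliferative gene that growth factors also induce within minutes, measured 702, 736, 592 and 635 CPM in the negative and 935, 1081, 774 and 817 in the positive libraries. The groups did not overlap (666 ± 65.0 and 901 ± 138 CPM, SD, n = 4), and the log2 difference of 0.43 ± 0.12 (0.15 to 0.71) missed the threshold in the paired fit (edgeR adjusted p = 0.0730). Btg2 was called higher by paired DESeq2 and by edgeR with the prefix as a covariate. Gadd45a, a sensor of DNA damage and stress, had the lowest difference of the 31 genes, with values of 143, 193, 229 and 167 CPM in the negative and 146, 134, 111 and 119.8 in the positive libraries. It was lower in 3 of 4 pairs, and its difference of -0.50 ± 0.18 (-0.91 to -0.10) did not pass in the paired fit (edgeR adjusted p = 0.122), while paired DESeq2 called it lower. Of its exon bases, 19.1% overlap E230016M11Rik.

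Ccng1, which encodes cyclin G1, which brings a phosphatase to MDM2, stood at 249, 257, 143 and 163 CPM in the negative and at 164, 186, 188 and 159 in the positive libraries. Its spread lay in the negative libraries, where CKD523 was high, and the difference was -0.18 (paired fit, edgeR adjusted p = 0.583). Ier5, an immediate early gene that modulates the heat shock factor HSF1, ran from 114 to 164 CPM in the negative and from 132 to 235 in the positive libraries, with a difference of 0.30 (paired fit, edgeR adjusted p = 0.341).

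None of the cell death genes passed in the unpaired or the paired edgeR fit. Apaf1, the scaffold of the apoptosome, stood at 13.6, 9.57, 9.90 and 11.2 CPM in the negative and at 17.0, 16.2, 20.3 and 19.1 in the positive libraries. The groups did not overlap, and the difference of 0.72 ± 0.20 (0.26 to 1.19) missed the threshold in the paired fit (edgeR adjusted p = 0.0694). Apaf1 was called higher by DESeq2, unpaired and paired, and by edgeR with the prefix as a covariate. The death receptor gene Fas ran from 8.52 to 22.7 CPM in the negative and from 12.5 to 29.7 in the positive libraries, was higher in all 4 pairs, and differed by 0.58 (paired fit, edgeR adjusted p = 0.128).

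Tnfrsf10b, the mouse receptor for the death ligand TRAIL, ran from 9.34 to 14.9 and from 10.9 to 17.2 CPM and differed by 0.38 in the paired fit (edgeR adjusted p = 0.292). Tnfrsf23, a decoy receptor for TRAIL, was among the least abundant members at 4.08, 1.61, 3.81 and 5.02 CPM in the negative and 8.99, 8.23, 3.48 and 3.93 in the positive libraries. It was higher in both CKD523 pairs and lower in both CKD627 pairs, and its counts may include reads of its close copy Tnfrsf22. Eda2r, the ectodysplasin A2 receptor, had the lowest level per length of the 31 genes.

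Other members with roles in cell death or survival had paired differences between -0.21 and 0.49, none of which passed. Phlda3, which holds back the kinase AKT, differed by 0.49 (paired fit, edgeR adjusted p = 0.287) and was higher in both CKD523 pairs only. For Zmat3, an RNA-binding protein, the difference of -0.04 ± 0.25 (-0.60 to 0.52) joined values that were lower in both CKD523 pairs (log2 -0.46 and -0.75) and higher in both CKD627 pairs (0.78 and 0.25). Perp, a protein of cell contacts and apoptosis, differed by -0.21, the nuclease gene Aen by 0.16 and Ei24 by -0.11. Of the pair of Trp53inp genes, which act in autophagy, Trp53inp1 differed by 0.13 and Trp53inp2 by -0.16.

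The DNA repair members and Ephx1 did not pass either. Polk, a polymerase that copies past DNA lesions, ran from 14.5 to 16.2 CPM in the negative and from 16.1 to 27.5 in the positive libraries, was higher in all 4 pairs and differed by 0.49 (paired fit, edgeR adjusted p = 0.168). Both of its positive CKD627 libraries (27.5 and 26.6 CPM) lay above the positive CKD523 ones (17.9 and 16.1). Xpc and Ddb2, which find damage for nucleotide excision repair, differed by -0.27 and 0.22, and Rrm2b, a ribonucleotide reductase subunit induced by p53, by 0.08. Of the exon bases of Ddb2, 23.8% overlap Acp2. Ephx1, an epoxide hydrolase of detoxification, differed by 0.42 (paired fit, edgeR adjusted p = 0.200).

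Levels of different genes were compared per kilobase of exon (CPM per kb, over the union of GENCODE exons). Btg2 was the most abundant member in both groups, with means of 243 CPM per kb in the negative and 329 in the positive libraries. Gdf15 followed at 116 and 208, then Gadd45a at 104 and 72.4 and Ddit4 at 95.9 and 137. The ranges of Gdf15 (80.5 to 199), Gadd45a (80.8 to 130.1) and Ddit4 (44.8 to 152) overlapped in the negative libraries, so their order there was not set beyond the spread. Eda2r stood lowest at 0.656 and 0.802 CPM per kb.

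Within the families, Sesn2 was the most abundant sestrin per kb (16.6 and 19.0), then Sesn1 (4.65 and 4.72) and Sesn3 (1.70 and 3.91). The range of Sesn3 in the positive libraries, 3.03 to 4.73 CPM per kb, reached that of Sesn1, 4.32 to 5.75, whereas in the negative libraries it ended at 2.25, below the lowest value of Sesn1, 4.29. Plk3 (30.9 and 48.2) and Plk2 (20.5 and 44.4) overlapped in both groups. Mdm2 (12.7 and 15.1) exceeded Mdm4 (4.87 and 7.86) in every library.

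**Figure D3:**
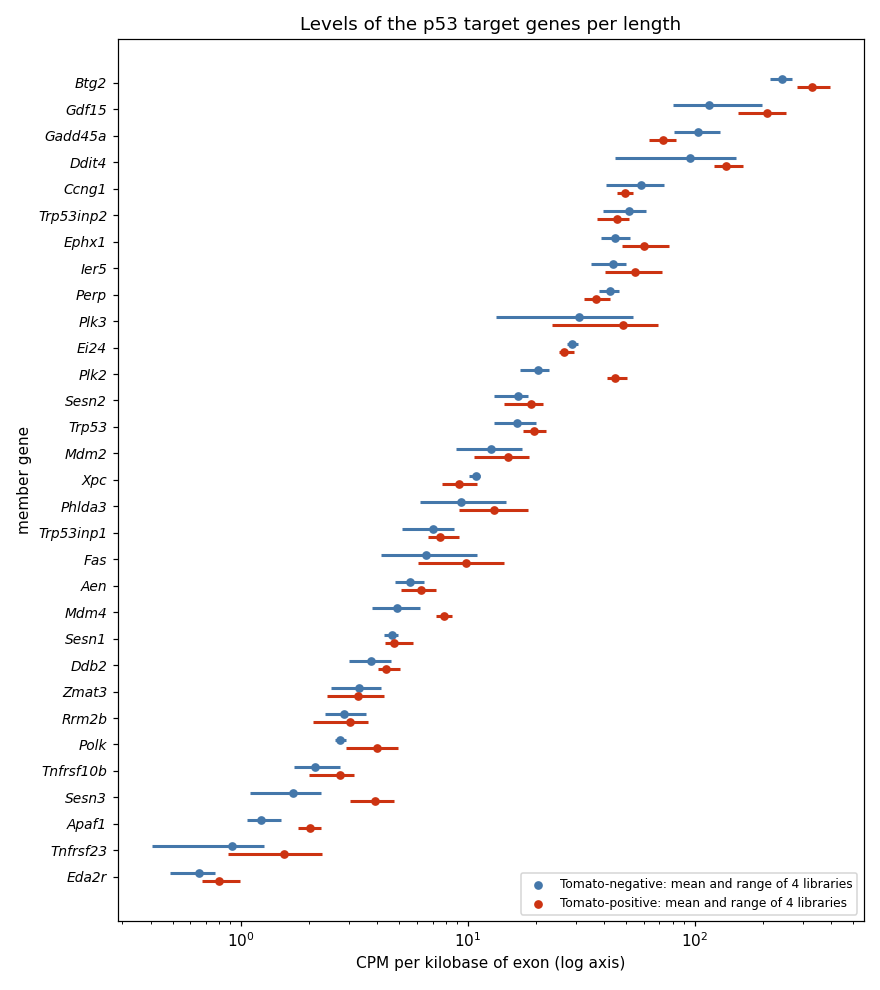
Level per length (CPM per kb of exon, log axis) of the 31 genes, as the mean and the range over the 4 libraries of each group. Btg2 is highest and Eda2r lowest in both groups, and Plk2 and Sesn3 are members whose ranges do not overlap between the groups.

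Between the 2 prefixes the share of members that differed was close to that of all genes. With the Tomato group in the model, 2 of 31 genes (6.45%) were higher in CKD627 than in CKD523, against 9.66% of all genes, and 4 (12.9%) were lower, against 11.4%. Plk3 averaged 147 CPM in CKD523 and 52.7 in CKD627 (log2 -1.55 ± 0.16, edgeR adjusted p = 1.82e-04). Mdm2 averaged 86.4 and 55.1 CPM (-0.65 ± 0.13, edgeR adjusted p = 0.00503), and Fas 22.6 and 11.2 CPM (-0.99 ± 0.22, edgeR adjusted p = 0.00814). The call of Fas was lost in the Tomato-negative libraries alone (-0.90, edgeR adjusted p = 0.113).

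Sesn3 was lower in CKD627 by a smaller step (log2 -0.52 ± 0.16, edgeR adjusted p = 0.0381), a call that was lost in 7 of 11 alternatives. Gdf15 and Ddit4 were the members that were higher in CKD627, with means of 232 and 367 CPM for Gdf15 (0.72 ± 0.19, edgeR adjusted p = 0.0182) and of 157 and 252 CPM for Ddit4 (0.83 ± 0.24, edgeR adjusted p = 0.0311). For Ddit4 the difference between prefixes was 1.42 in the Tomato-negative libraries alone (edgeR adjusted p = 0.00186) and 0.19 in the Tomato-positive ones alone (0.469), and its call was also lost without the negative library of CKD523_2, CKD523_3 or CKD627_2. That of Gdf15 was lost in the Tomato-negative libraries alone and without the negative library of CKD523_2 or CKD523_3. For 2 members (6.45%), Mdm2 and Plk3, every CKD627 library lay below every CKD523 library, against 10.4% of all genes, and for none did every CKD627 library lie above, against 9.52%. Plk2 differed by -0.20 and Mdm4 by -0.14 between the prefixes, and neither passed.

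**Figure D4:**
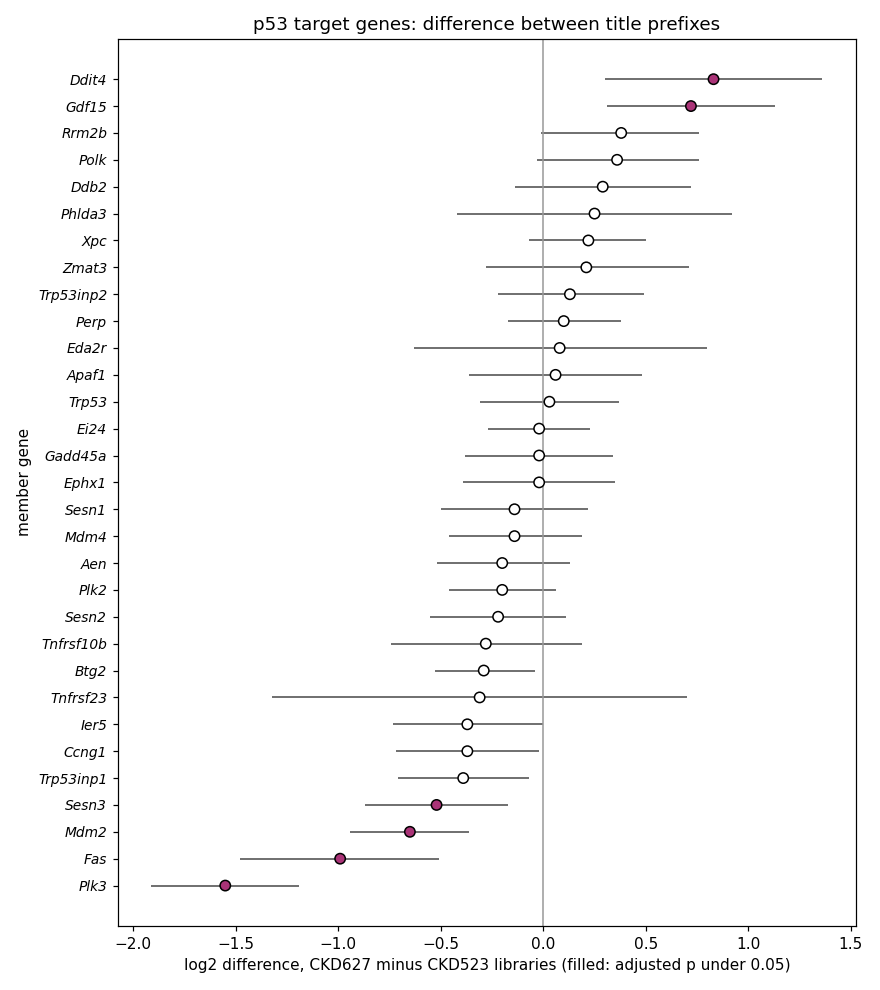
Log2 difference between the prefixes (CKD627 minus CKD523, horizontal axis) of each of the 31 genes with its 95% interval, from the fit with the Tomato group as a covariate. Of the 6 filled points, which passed the test, Plk3, Fas, Mdm2 and Sesn3 lie below 0 and Gdf15 and Ddit4 above it.

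Whether the Tomato difference itself depended on the prefix was tested as an interaction. None of the 31 genes passed in edgeR, where 0.140% of all genes did, while 6 members (2 with a larger and 4 with a smaller difference in CKD627) had an unadjusted p below 0.05, as did 13.8% of all genes, and DESeq2 called 1 member and 2.66% of all genes. That member was Ddit4, whose difference was smaller in CKD627 by 1.29 ± 0.25 on the log2 scale (edgeR adjusted p = 0.0940). The other 5 were Zmat3 (1.12 ± 0.30, edgeR adjusted p = 0.158), Ccng1 (0.71), Phlda3 (-1.06), Ephx1 (-0.71) and Tnfrsf23 (-1.97). Plk2 had nearly the same difference in both prefixes (interaction 0.01 ± 0.22, 95% interval -0.49 to 0.51), and so had Sesn3 (0.04 ± 0.33, -0.70 to 0.78).

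Among other genes of the pathway, single targets rose or fell in the paired fit. Of 28 further p53 targets tested, 3 were higher and 1 lower in the paired fit, where 3.82 and 3.81% of all genes were, with a median log2 difference of 0.16 (0.31 in the unpaired fit). At an unadjusted p below 0.05, 6 of these targets were higher and 5 lower in the paired fit, where 25.0% of all genes passed. Paired DESeq2 called 4 of them higher and 2 lower, where it called 14.2% of all genes. In the unpaired edgeR fit none passed, and 4 were higher and 4 lower at an unadjusted p below 0.05, against 17.8% of all genes. Unpaired DESeq2 called 1 higher, where it called 7.00% of all genes. Pmaip1, which encodes the death-promoting BH3 protein NOXA, stood at 62.9, 54.8, 47.2 and 41.3 CPM in the negative and at 124, 133, 70.1 and 88.4 in the positive libraries, with no overlap, and rose by 0.98 ± 0.15 (paired fit, edgeR adjusted p = 0.00924). Lif, a cytokine, rose by 1.18 ± 0.16 (edgeR adjusted p = 0.00525) and Epha2, a receptor kinase, by 1.02 ± 0.15 (edgeR adjusted p = 0.00693), while Ak1, an adenylate kinase, fell (-1.63 ± 0.19, edgeR adjusted p = 0.00293), all in the paired fit.

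Cdkn1a, which encodes the cell cycle inhibitor p21, measured 137, 111, 107 and 96.9 CPM in the negative and 222, 213, 107 and 82.8 in the positive libraries. It was high in both positive CKD523 libraries only, and its difference of 0.36 ± 0.21 (-0.11 to 0.82) did not pass (paired fit, edgeR adjusted p = 0.318). The death genes Bax (-0.15, edgeR adjusted p = 0.630) and Bbc3 (0.58, edgeR adjusted p = 0.209) did not pass in the paired fit. None of 18 regulators of p53 passed in either edgeR fit (median 0.38, paired). In the paired fits 5 were higher at an unadjusted p below 0.05, where 25.0% of all genes passed in either direction. Paired DESeq2 called 2 higher, where it called 14.2% of all genes. Among the 5, Crebbp, Ep300, Atm and Trp53bp1 had their largest rise in the pair CKD627_1 (log2 2.35, 2.18, 1.41 and 0.91). Ppp1r13l had its smallest there (0.14). Outside the 5, Hipk2, Prkdc, Atr, Usp7 and Ppp1r13b also rose most in CKD627_1 (2.72, 1.85, 1.08, 0.53 and 0.78), and the other regulators did not. For Crebbp, Ep300, Atm and Trp53bp1 the negative library of that pair was the lowest negative one (11.6, 27.6, 19.9 and 36.5 CPM). The other negative libraries stood at 37.8 to 56.9, 71.9 to 96.3, 23.5 to 29.3 and 48.6 to 50.4 CPM. None of 20 cell cycle genes that fall downstream of p53 and p21 passed in edgeR or DESeq2 (median -0.05, paired), and 1 was lower at an unadjusted p below 0.05. Of 18 genes of the integrated stress response, which also raises Gdf15, Ddit4 and Sesn2, 1 rose in the paired fit, where 3.82% of all genes did. It was Psat1 of serine synthesis (0.61 ± 0.14, edgeR adjusted p = 0.0382). The median of the 18 genes was -0.01. At an unadjusted p below 0.05 in that fit, 1 of them was higher and 3 were lower, where 25.0% of all genes passed.

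Immediate early genes, which growth factors and other stimuli switch on within minutes and to which Plk2, Plk3, Btg2 and Ier5 are also counted, moved with the Tomato groups. Of 20 such genes, 10 were higher and none lower in the paired fit (median 0.53), where 3.82% of all genes were higher and 3.81% lower. In the unpaired edgeR fit none passed, and 11 were higher and none lower at an unadjusted p below 0.05, against 17.8% of all genes. Unpaired DESeq2 called 8 higher, where it called 7.00% of all genes. Their summed level ran from 14726 to 16135 CPM in the negative and from 19128 to 25615 in the positive libraries, without overlap. Fosb rose by 1.01 ± 0.13 (edgeR adjusted p = 0.00443), Egr2 by 1.09 ± 0.16 (0.00718), Myc by 0.86 ± 0.14 (0.0115) and Nr4a1 by 0.78 ± 0.15 (0.0182), all in the paired fit. Their part in the differences of the p53 targets was not tested.

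Markers of nephron segments moved with the groups in the paired fit as well, where 3.82% of all genes were higher and 3.81% lower. In that fit 8 of 8 markers of the principal cells of the collecting duct were higher (summed level 231 to 2344 CPM in the negative and 1054 to 5377 in the positive libraries). Lower were 7 of 16 proximal tubule markers and 6 of 8 of the loop of Henle (4217 to 14401 and 1854 to 6921 CPM). So were 4 of 7 of the distal tubule (1189 to 2648 and 212 to 867 CPM) and 4 of 8 of intercalated cells (313 to 2638 and 299 to 1151 CPM). At an unadjusted p below 0.05 in the paired fit, 6 intercalated cell markers were lower and 2 higher, where 25.0% of all genes passed. Paired DESeq2 called 8 proximal tubule markers lower and 1 higher. Slc5a2 was higher in all 4 pairs (0.70 ± 0.21) and did not pass (paired fit, edgeR adjusted p = 0.0810). Lrp2, Cubn, Slc5a12, Slc34a1 and Hnf4a were lower in both CKD523 pairs and higher in both CKD627 pairs. For Lrp2, Cubn and Slc5a12 the interaction with the prefix passed (edgeR adjusted p = 0.0471, 0.0475 and 0.0475), as for 0.140% of all genes. For Slc34a1 and Hnf4a it did not (edgeR adjusted p = 0.131 and 0.0940). In the unpaired fit 1 principal cell marker was higher, 1 proximal tubule marker was lower, and none of the loop of Henle, the distal tubule or intercalated cells passed in edgeR, while unpaired DESeq2 called 2, 3 and 1 of these lower and 2, 3 and 3 were lower at an unadjusted p below 0.05. Between the prefixes, 14 of 16 proximal tubule markers were lower in CKD627, and 7 of 8 of the loop of Henle, 7 of 8 of principal cells and 7 of 8 of the endothelium were higher.

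Of other cell types, 2 of 7 macrophage markers, Cd68 and Cd74, were higher in the paired fit (summed level 156 to 401 and 194 to 488 CPM). The median over the macrophage markers was -0.03 in that fit, and 2 were higher and 1 lower at an unadjusted p below 0.05. Paired DESeq2 called 2 macrophage markers higher and 1 lower. None of 8 endothelial (133 to 611 and 53.6 to 707 CPM) or 7 fibroblast and pericyte markers (73.4 to 269 and 96.3 to 205 CPM) passed in edgeR. At an unadjusted p below 0.05 there were 0 and 3 of them in the paired fit, and DESeq2 called 0 and 2. Lymphocyte markers summed to at most 2.93 CPM, with Cd3e and Nkg7 at 0 in every library. The part of these cell types in the differences of the p53 targets was not tested.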

How the data were processed

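Counts per gene of 8 libraries, 4 Tomato-negative and 4 Tomato-positive, were used. The values are raw counts, aligned with subread per the file headers. The submitters' processing notes name the build mm10 and the tools edgeR 3.32.1 and limma 3.46.0. The counter, annotation and strand setting: not given in the sources used here. Per the labels' protocols, a Norgen kit for single cells gave total RNA, and libraries were NEBNext Ultra.

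Genes were kept by edgeR's filterByExpr (10 counts in 4 libraries, 15 in all), leaving 14284 of 25240 (56.6%). The main comparison was edgeR 4.0.16 in R 4.3.3 with TMM factors (0.91 to 1.07) and the 2-sided quasi-likelihood test, unpaired, at a threshold of 0.05. SEs were the difference over the root of F. Other models were the paired fit, the interaction of group and prefix, and the prefix with group as a covariate. As a check of the pairing by title identifier, deviations from the group means correlated across genes within pairs (0.42, 0.27, 0.29 and 0.41). Each exceeded 0.1, so the paired fit is given beside each result it changes. The other identifier of a prefix gave 0.30, 0.37, 0.27 and 0.40, so the check cannot separate a shared identifier from a shared prefix. Library counts differed beyond sampling noise within groups (chi-square per degree of freedom 15.5 to 191), so each counted as 1 sample. Reads carry no molecular identifiers. The steps were tested on simulated data.

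Alternatives were other scalings and filters, DESeq2 1.42.0, limma-voom (limma 3.58.1), a covariate for prefix, fits to 1 prefix, and leaving out each library or pair. All 31 genes were named whatever their result; of the other lists, the 4 with the smallest p past the threshold in the paired fit, and Cdkn1a, Bax, Bbc3 and Pmaip1. In the lists of nephron and other cell types, genes were named only where 2 or fewer passed, after their values were seen. Proximal tubule markers that went the other way, Umod in the check of the cell type, and the named regulators of p53 were also named after their values were seen. The result of 1 list of cell type markers is not reported here. The 31 genes and all lists were chosen with earlier results of these data known.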

Additional observations from a re-analysis of the deposited data

Results flagged for a closer look

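The Tomato-positive library CKD523_3 stood apart in Sesn1, at 22.9 CPM against 17.2 to 17.7 in the other 3 positive libraries. Its gap to the nearest of them was 0.915 of the whole range, above Dixon's 95% critical value for 4 samples. Of 62 groups examined (31 genes in 2 groups), this was 1, and chance gives about 1 in 20. No difference between prefixes in the Tomato effect passed the test in edgeR for any of the 31 genes.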

How the results depend on the processing

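In the unpaired comparison 1 of the 31 genes passed. The replicate block (the paired fit) gave 5, the prefix as a covariate 7, DESeq2 4, scaling by library size only 2, and CKD523 alone 11 (9 higher, 2 lower). Of all genes, 0.595% passed in the unpaired fit and 7.62, 10.7, 7.00, 0.434 and 15.7% in these. DESeq2's size factors, no filter, the filter of 1 CPM in 4 libraries, limma-voom and CKD627 alone gave 1, which was Plk2 in each. Of all genes, 0.595, 0.241, 0.524, 0.644 and 2.07% passed in these. Leaving out 1 library gave 0 to 1. In the paired fit 5 genes passed. DESeq2 with the replicate block gave 8 (7 higher, and Gadd45a lower), with 14.2% of all genes. Other scalings, filters and limma-voom gave 5, with 7.53 to 9.72% of all genes. Leaving out a pair gave 2 to 6, with 1.41 to 9.25% of all genes. Plk2 and Sesn3 passed in each of these paired fits. The interaction had 0 calls, and 1 with DESeq2 (Ddit4). Between prefixes 6 genes passed, with 21.1% of all genes. Leaving out 1 library gave 3 to 7, with 15.3 to 21.8% of all genes. Without the Tomato-negative library CKD523_3 the 3 were Mdm2, Fas and Plk3. The median difference of 0.30 was 0.17 in CKD627 alone and 0.19 to 0.30 without a pair. The median and the genes that passed in the unpaired, paired or prefix fit kept their direction in each alternative. Other members were not followed. Of the 31 genes, 12 were higher and none lower in all 4 pairs. The rest, among them Zmat3, Tnfrsf23 and Ccng1, had pairs of opposite sign. Why counts differed between settings was not tested, beyond the smaller number of libraries where some were left out. With 1 library left out, all genes together gave 6 to 26 unpaired calls, against 85.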
